A study of Mus musculus with 24 samples.

Results

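Mt1 and Mt2, the metallothioneins of mouse liver, were described together with Mtf1, Slc39a14, Slc30a1 and Slc30a10, which regulate or carry zinc and related metals. The 6 genes were found by their names in the scanner files, control spots left out, and were covered by 10 of the 56605 probes on the array. Mtf1 had 4 probes, Mt1 had 2 and each other gene had 1. All 10 probes were well above background on all 24 arrays and were tested, among 32078 tested probes.

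RNA from whole liver of C57BL/6J mice, an inbred strain, was measured on 24 single-colour Agilent arrays. The labels give 4 groups of 6 arrays: males fed a pesticide mixture, males fed the control diet, females fed the pesticide mixture and females fed the control diet. The diets lasted 52 weeks, the mice had arrived at 8 weeks old with 2 weeks of acclimatisation, and the labelled age at sampling was 68 weeks. The series title places the mixture at the acceptable daily intake, and the compounds in it are not named in the sources used here. The labels do not tie the 6 liver samples of a group to separate mice, so p-values measure only the spread between these samples, which may be technical.

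The sex-linked transcripts went against 12 of the 24 sex labels. Xist, which cells with 2 X chromosomes transcribe, was well above background on 12 labelled pesticide arrays and on 0 of the 12 labelled control arrays, and the Y-linked gene Eif2s3y had the reverse pattern. Its mean was 5.08 ± 0.15 in labelled pesticide males against 10.94 ± 0.05 in labelled control males (log2 intensity, SD, n = 6 each). Labelled diet and the sex shown by these transcripts coincide on every array, so the effects of the 2 cannot be told apart, and every group below is named by its label. Precision is limited by the number of arrays. The scanner marked 29935 to 39032 probes of an array as well above background and 0 spots as saturated. Of 10 hepatocyte markers, 9 passed the level for testing.

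Metallothioneins are small proteins rich in cysteine that bind zinc, copper and cadmium, and the liver makes much of its Mt1 and Mt2 in response to metals, glucocorticoids and inflammatory cytokines. Mtf1 encodes the zinc finger factor that senses free zinc and binds metal response elements (MREs) in the promoters of Mt1, Mt2 and Slc30a1. Slc39a14 (ZIP14) brings zinc, manganese and non-transferrin-bound iron into hepatocytes. Slc30a1 (ZnT1) exports zinc across the plasma membrane, and Slc30a10, despite its place in the zinc transporter family, is known as a manganese exporter.

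The promoters of 3 genes are shown because Mtf1 acts through the MRE core, whose letters TGCACNC or TGCGCNC were searched on both strands. Each sequence is the 250 bases before the start of the gene in RefSeq (GRCm38.p6, plus strand, 5′ to 3′), with MRE cores in capitals. They lie at chr8:94178839-94179088, chr8:94172368-94172617 and chr1:191906531-191906780.
Mt1: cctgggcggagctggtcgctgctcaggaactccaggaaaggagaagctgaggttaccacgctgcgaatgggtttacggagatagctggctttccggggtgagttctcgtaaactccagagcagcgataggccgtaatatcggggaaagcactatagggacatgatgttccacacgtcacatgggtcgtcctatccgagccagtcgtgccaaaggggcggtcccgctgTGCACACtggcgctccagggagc
Mt2: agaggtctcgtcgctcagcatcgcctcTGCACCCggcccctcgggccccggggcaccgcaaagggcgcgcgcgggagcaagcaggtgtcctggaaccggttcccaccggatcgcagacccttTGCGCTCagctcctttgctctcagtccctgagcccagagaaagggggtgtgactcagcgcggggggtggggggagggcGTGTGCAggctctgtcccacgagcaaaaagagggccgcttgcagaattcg
Slc30a1: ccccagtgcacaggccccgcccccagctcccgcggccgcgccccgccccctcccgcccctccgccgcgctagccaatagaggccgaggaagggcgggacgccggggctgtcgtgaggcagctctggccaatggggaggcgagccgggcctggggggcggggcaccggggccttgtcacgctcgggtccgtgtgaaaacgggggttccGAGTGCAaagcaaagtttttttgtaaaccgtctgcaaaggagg
The Mt1 window held 1 core, at 23 to 17 bases before the start. The Mt2 window held 3, the nearest at 50 to 44 bases before the start, and the Slc30a1 window held 1, at 43 to 37 bases before it. The Slc30a10 window held 3 cores, of which 2 overlap on opposite strands, and the Mtf1 window held 0. Of 32851 RefSeq promoters of the same length, 21.4% held at least 1 core and 1.26% held at least 3. Counted over 300 bases, with the first 50 bases of the gene added, the cores numbered 3 in Mt1, 4 in Mt2 and 2 in Slc30a1. They numbered 3 in Slc30a10 and 0 in Mtf1, while 0.517% of promoters held at least 4. Of the Mt1 cores, 2 came with those 50 bases, so the count before the start depends on the start site used. Bases beyond these 300 were not searched. The antioxidant response core TGACNNNGC, which shares no base with an MRE core in these windows, was found 1 time in each of Mt2 and Slc30a1, and in 10.2% of promoters. The STAT core TTCNNNGAA was in 0 of the 5 windows and in 7.02% of promoters. The antioxidant and STAT cores were searched only in the 250 bases before the start, so a core after it would be missed. A match is a run of letters and was not tested as a binding site.

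The question of the pesticide against control comparison was how the diet changed hepatic expression in each labelled sex. In labelled females, Mt1 and Mt2 were both higher in the pesticide group, by 7.20-fold and 7.76-fold. In labelled males the fitted differences were 2.81-fold for Mt1 and 2.28-fold for Mt2 and did not pass the test. The labelled male control group held 1 array with the highest Mt1 and Mt2 of all 24. For Mtf1 and the transporters the fitted differences were at most 1.35-fold, and none passed within a sex.

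Mt1 was measured by probe A_66_P111660 (NM_013602, mm9, chr8:96704165-96704224). All values per array below are log2 normalized intensities, listed by replicate number. Values of 1 probe are not set against those of another, except for Eif2s3y on arrays that lacked it, as a mark of the background. On labelled male pesticide arrays 1 to 6, Mt1 was at 15.60, 15.94, 14.29, 15.88, 15.09 and 14.88. On labelled male control arrays it was at 12.07, 14.22, 13.49, 17.68, 12.35 and 12.92. The 6 male pesticide arrays thus lay above 5 of the 6 male control arrays, and male control 4 lay above every pesticide array of either sex. On labelled female pesticide arrays, Mt1 was at 17.20, 16.90, 15.28, 16.72, 16.13 and 15.20. On labelled female control arrays it was at 13.21, 14.58, 13.87, 13.62, 12.95 and 12.11. The lowest female pesticide array, at 15.20, stood above the highest female control array, at 14.58, so these groups did not overlap. Of the 10 probes, 2 did not overlap in labelled females, Mt1 A_66_P111660 and the brightest Mtf1 probe, while 7.83% of all tested probes did not, 3.64% with the pesticide group higher. In labelled males 0 of the 10 were free of overlap, while 10.2% of all tested probes were, 5.6% with the pesticide group higher.

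Mt2 (A_51_P246317, NM_008630, mm9, chr8:96697371-96697430), the neighbouring gene with the same metal-binding role, was at 13.47, 14.34, 12.51, 14.93, 14.43 and 13.47 on labelled male pesticide arrays. On labelled male control arrays it was at 10.58, 13.23, 11.93, 17.51, 10.62 and 12.15. Here 4 of the 6 male control arrays lay below every male pesticide array, and male control 4 again lay above all of them. On labelled female pesticide arrays Mt2 was at 16.73, 15.95, 13.72, 16.05, 14.38 and 13.84. On labelled female control arrays it was at 11.72, 13.99, 12.11, 12.60, 11.71 and 10.81. The female groups overlapped through female control 2, at 13.99, which stood above 2 female pesticide arrays.

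**Figure D1:**
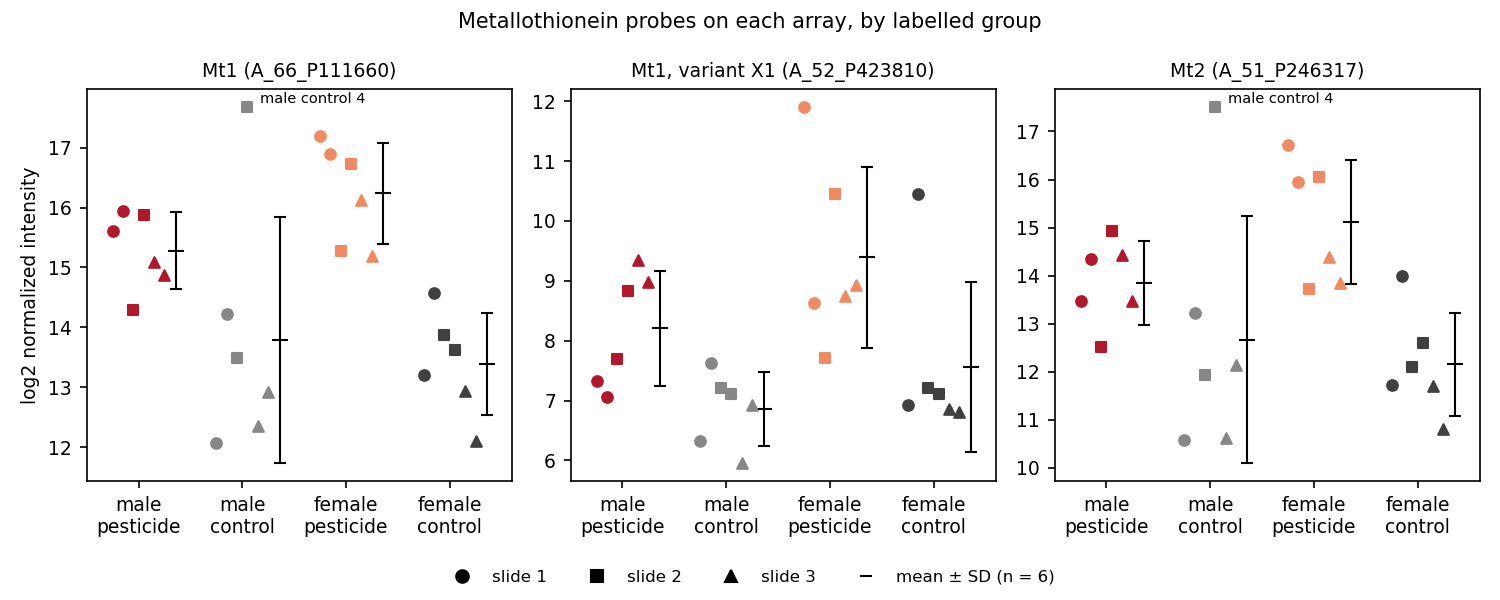
Log2 normalized intensity (y axis) of the 2 Mt1 probes and the Mt2 probe on each array, by labelled group (x axis), with the slide as the marker shape and the mean ± SD of 6 arrays beside the points. Labelled male control 4, at 17.68 for Mt1 and 17.51 for Mt2, lies far above the other 5 arrays of its group, and the female groups do not overlap for Mt1 probe A_66_P111660.

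Mt1 averaged 15.28 ± 0.65 in labelled pesticide males and 13.79 ± 2.06 in labelled control males (SD, n = 6 each). The log2 difference was 1.49 ± 0.65 (SE; limma adjusted p = 0.11). It averaged 16.24 ± 0.85 in labelled pesticide females and 13.39 ± 0.84 in labelled control females, which is a log2 difference of 2.85 ± 0.65 (95% interval 1.48 to 4.21; limma adjusted p = 0.0037). Mt2 averaged 13.86 ± 0.87 in labelled pesticide males and 12.67 ± 2.58 in labelled control males, with a log2 fold change of 1.19 ± 0.85 (limma adjusted p = 0.34). In labelled females Mt2 averaged 15.11 ± 1.28 in the pesticide and 12.16 ± 1.07 in the control group, a log2 fold change of 2.96 ± 0.85 (95% interval 1.19 to 4.72; limma adjusted p = 0.017). In labelled males 0 of the 10 probes of the 6 genes passed, where 22.2% of all tested probes did (11.6% higher and 10.7% lower), and 3 of the 10 had an unadjusted p under 0.05. Of all probes that passed in labelled males, 52.1% were higher, and 38.1% were when arrays were scaled to their 75th percentile in place of quantile normalization. In labelled females 3 of 10 passed, both Mt1 probes and Mt2, where 18.3% of all tested probes passed, 8.88% higher and 9.44% lower. By mean level the groups ran labelled female pesticide, male pesticide, male control and female control for both genes. No neighbouring groups in that order passed in limma for either gene.

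The second Mt1 probe, A_52_P423810, is listed for a predicted transcript variant (XM_006530752, mm9, chr8:96703844-96703903) and had its own pattern. It was at 7.33, 7.07, 7.69, 8.83, 9.35 and 8.97 on labelled male pesticide arrays and at 6.32, 7.64, 7.21, 7.11, 5.95 and 6.93 on labelled male control arrays. Unlike the other Mt1 probe and Mt2, it was not high on male control 4, at 7.11 against 5.95 to 7.64 on the other 5 arrays. It was at 11.91, 8.64, 7.72, 10.44, 8.74 and 8.93 on labelled female pesticide arrays and at 6.93, 10.46, 7.21, 7.10, 6.86 and 6.81 on labelled female control arrays. Female control 2 stood above 5 of the 6 female pesticide arrays. The log2 fold change was 1.35 ± 0.63 in labelled males (limma adjusted p = 0.13) and 1.83 ± 0.63 in labelled females (limma adjusted p = 0.044). The female call rested on little: it passed in 16 of 24 fits that each left out 1 array, with adjusted p from 0.0037 to 0.12. The weakest was without female pesticide 1, where the log2 fold change was 1.33. Without female control 2 the log2 fold change was 2.41. The female call was also lost with the replicate number as a block (adjusted p = 0.06), with a slide block (0.05), with no filter on dim probes (0.074), with trend and robust eBayes (0.051) and with only the female arrays (0.11). With only the male arrays the male difference passed instead (limma adjusted p = 0.028). This probe was dim, at 5.95 and 6.32 on its dimmest arrays, male control 5 and 1, where its raw median signals were 62 and 74. On the same normalized log2 scale, Eif2s3y averaged 5.08 on the labelled male pesticide arrays that lacked it. No background was subtracted from these values. With the scanner's processed signals, scaled to the 75th percentile, the probe's differences were 1.70 in males (limma adjusted p = 0.096) and 2.11 in females (0.047).

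Labelled male control 4 decided the result in labelled males. Without it, Mt1 averaged 13.01 ± 0.87 and Mt2 11.70 ± 1.12 in the male control group (SD, n = 5), and no male control array reached the lowest pesticide array for Mt1. Mt1 was then higher in labelled pesticide males by 2.27 ± 0.45 (log2, SE; limma adjusted p = 0.0011) and Mt2 by 2.16 ± 0.61 (limma adjusted p = 0.016), while 19.1% of all tested probes passed. The variant probe of Mt1 did not pass, at 1.40 (limma adjusted p = 0.15). The array also set the spread that all groups share: without it, the female adjusted p were 5.4e-05 for Mt1 and 0.00099 for Mt2. The values within slides showed the same array. On slides 1, 2 and 3, Mt1 differed by 2.63, -0.50 and 2.35 in labelled males and by 3.15, 2.26 and 3.13 in labelled females (log2, pesticide minus control, 2 arrays a group), and male control 4 was on slide 2. Mt2 differed by 2.00, -1.0 and 2.56 in labelled males and by 3.48, 2.53 and 2.85 in labelled females. In these fits of 8 arrays, only Mt1 on slide 3 passed among the comparisons within 1 sex of these 2 probes, with limma adjusted p of 0.026 in males and 0.0092 in females.

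Over the mean of both labelled sexes, 6 of the 10 probes passed, where 36.1% of all tested probes did. Mt1 was higher by 2.17 ± 0.46 (limma adjusted p = 0.00074), its variant probe by 1.59 ± 0.44 (0.0070) and Mt2 by 2.07 ± 0.60 (0.0087), on the log2 scale with SE. All 12 labelled pesticide arrays stood above the median of the 12 labelled control arrays for each of these 3 probes. The calls for these 3 held in each of the 24 fits that left out 1 array, with the highest adjusted p at 0.018. The other 3 probes that passed were 2 for Mtf1 and the one for Slc30a10.

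**Figure D2:**
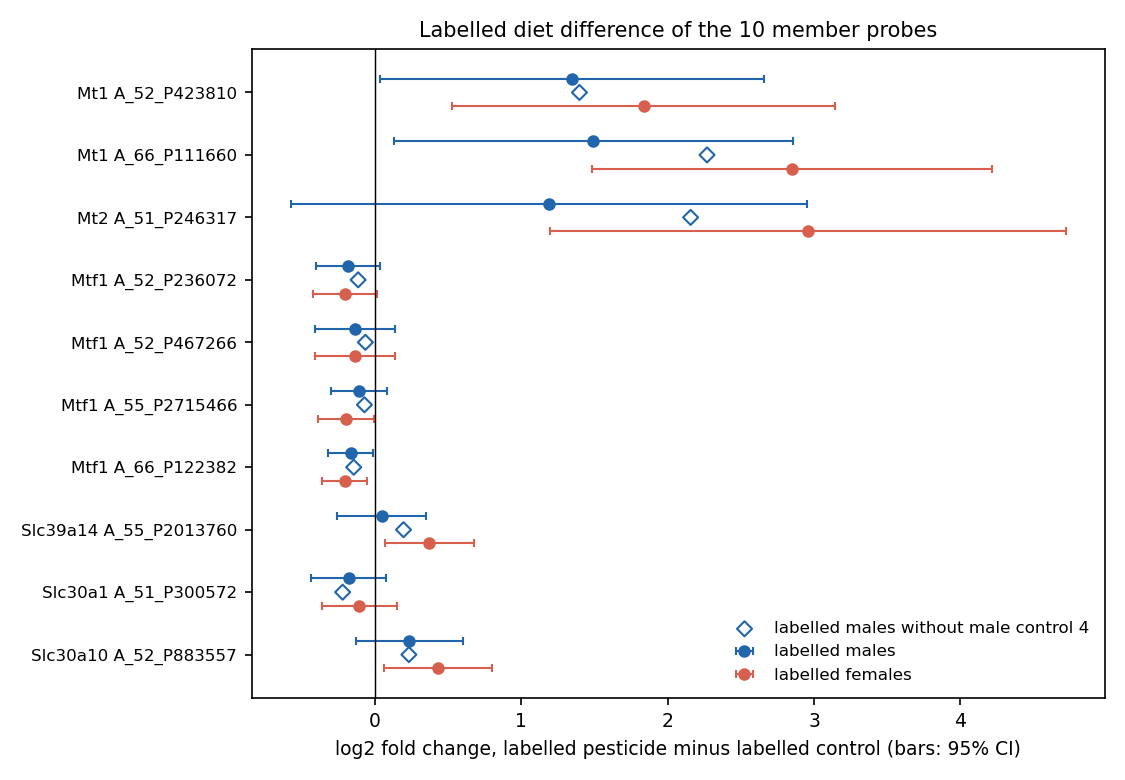
Log2 fold change (x axis, labelled pesticide minus labelled control) of the 10 probes (y axis) in labelled males and labelled females, with 95% intervals as bars, and in labelled males without male control 4 as open diamonds. The metallothionein probes lie at 1.19 to 2.96 with wide intervals, and the other 7 probes lie between -0.21 and 0.43.

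The difference between the labelled sexes in the size of the labelled diet effect was tested and did not pass for any member. It was -1.36 (95% interval -3.29 to 0.57) for Mt1 and -1.77 (-4.26 to 0.73) for Mt2, as the male effect minus the female effect on the log2 scale, each with a limma adjusted p of 1. None of the 32078 probes passed in limma, 0%, and 1265 had an unadjusted p under 0.05, with 0 of the members among them. The intervals leave room for a difference of either sign. Labelled male minus female differences gave the same count of 0 in either diet. Within each diet, Xist and Eif2s3y showed the same sex in both labelled groups. That count therefore does not measure a difference between males and females. Mt1 differed by -0.96 ± 0.65 in the pesticide groups and by 0.40 ± 0.65 in the control groups (log2, SE), and the control difference was -0.38 without male control 4. Mt2 differed by -1.26 ± 0.85 in the pesticide groups and by 0.51 ± 0.85 in the control groups, and the control difference was -0.46 without that array. At an unadjusted p under 0.05 these comparisons held 1311 probes in the pesticide groups, with 0 members, and 1792 in the control groups, with 1 member, Slc39a14.

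Mtf1, the zinc sensor, was slightly lower in the labelled pesticide groups. Its brightest probe, A_66_P122382 (NM_008636, mm9, chr4:124521937-124521996), ran from 11.04 to 11.22 with a median of 11.15 in labelled pesticide males. It ran from 11.02 to 11.61 with a median of 11.29 in labelled control males. It ran from 10.94 to 11.17 with a median of 11.04 in labelled pesticide females, and from 11.19 to 11.39 with a median of 11.23 in labelled control females. All 12 pesticide arrays lay below the median of the 12 control arrays, and the female groups did not overlap. The mean over both labelled sexes fell by 0.19 on the log2 scale (SE 0.05, limma adjusted p = 0.0075), and this call held in all 24 fits that left out 1 array. The differences within a sex were -0.17 ± 0.07 in labelled males (limma adjusted p = 0.11) and -0.21 ± 0.07 in labelled females (limma adjusted p = 0.055). Scaling to the 75th percentile moved both past the threshold, at -0.24 (limma adjusted p = 0.032) in males and -0.27 (0.023) in females, and without male control 5 the male difference passed with an adjusted p of 0.022.

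The other 3 Mtf1 probes, also on chromosome 4, pointed the same way with smaller support. A_52_P236072 differed by -0.19 over both labelled sexes (limma adjusted p = 0.045), and it passed in 10 of 24 fits that left out 1 array and missed the threshold with a replicate block (0.066), a slide block (0.053), no filter on dim probes (0.076) and scaling of median signals to the 75th percentile (0.062). A_55_P2715466 differed by -0.15 (0.064) and A_52_P467266 by -0.14 (0.26). Group means of A_52_P236072 were 7.51 ± 0.15 in labelled pesticide males, 7.69 ± 0.24 in labelled control males, 7.63 ± 0.11 in labelled pesticide females and 7.83 ± 0.21 in labelled control females. A_55_P2715466 averaged 6.74 ± 0.10 in labelled pesticide males, 6.85 ± 0.14 in labelled control males, 6.76 ± 0.11 in labelled pesticide females and 6.96 ± 0.23 in labelled control females. A_52_P467266 averaged 8.54 ± 0.18 in labelled pesticide males, 8.68 ± 0.34 in labelled control males, 8.50 ± 0.25 in labelled pesticide females and 8.64 ± 0.12 in labelled control females (SD, n = 6 each). In each sex all 3 of these probes had the lower mean in the pesticide group.

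Slc39a14, the importer, was measured by A_55_P2013760 (NM_001135151, mm9, chr14:70703394-70703453). It ran from 12.17 to 12.72 with a median of 12.40 in labelled pesticide males, and from 12.06 to 13.14 with a median of 12.24 in labelled control males. The highest value, 13.14, was again male control 4. It ran from 12.29 to 12.59 with a median of 12.47 in labelled pesticide females, and from 11.84 to 12.44 with a median of 12.07 in labelled control females. All 12 pesticide arrays lay above the median of the 12 control arrays. The log2 fold change was 0.05 ± 0.15 in labelled males (limma adjusted p = 0.86) and 0.37 ± 0.15 in labelled females (limma adjusted p = 0.078). Without male control 4 the female adjusted p was 0.023, without female control 2 it was 0.044, and with only the female arrays it was 0.022. The mean over both sexes was 0.28 (0.0091) without male control 4 against 0.21 (0.12) with it.

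The 2 exporters had fitted differences of opposite sign. Slc30a1 (A_51_P300572, NM_009579, mm9, chr1:193736760-193736819) ran from 9.61 to 10.21 with a median of 10.08 in labelled pesticide males, and from 9.998 to 10.46 with a median of 10.13 in labelled control males. It ran from 9.77 to 10.23 with a median of 10.08 in labelled pesticide females, and from 9.84 to 10.57 with a median of 10.05 in labelled control females. The groups overlapped in both sexes, and the log2 differences of -0.18 ± 0.12 in males (limma adjusted p = 0.32) and -0.11 ± 0.12 in females (0.59) did not pass. Slc30a10 (A_52_P883557, NM_001033286, mm9, chr1:187292107-187292166) ran from 9.17 to 10.06 with a median of 9.62 in labelled pesticide males, and from 9.12 to 9.69 with a median of 9.36 in labelled control males. It ran from 9.02 to 9.83 with a median of 9.60 in labelled pesticide females, and from 8.46 to 9.60 with a median of 9.23 in labelled control females. Of the 12 pesticide arrays, 9 lay above the median of the control arrays. The mean over both sexes was higher by 0.33 ± 0.12 (log2; limma adjusted p = 0.039), a call that held in 13 of 24 fits that left out 1 array. The differences within a sex were 0.24 ± 0.18 (0.37) in males and 0.43 ± 0.18 (0.092) in females.

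**Figure D3:**
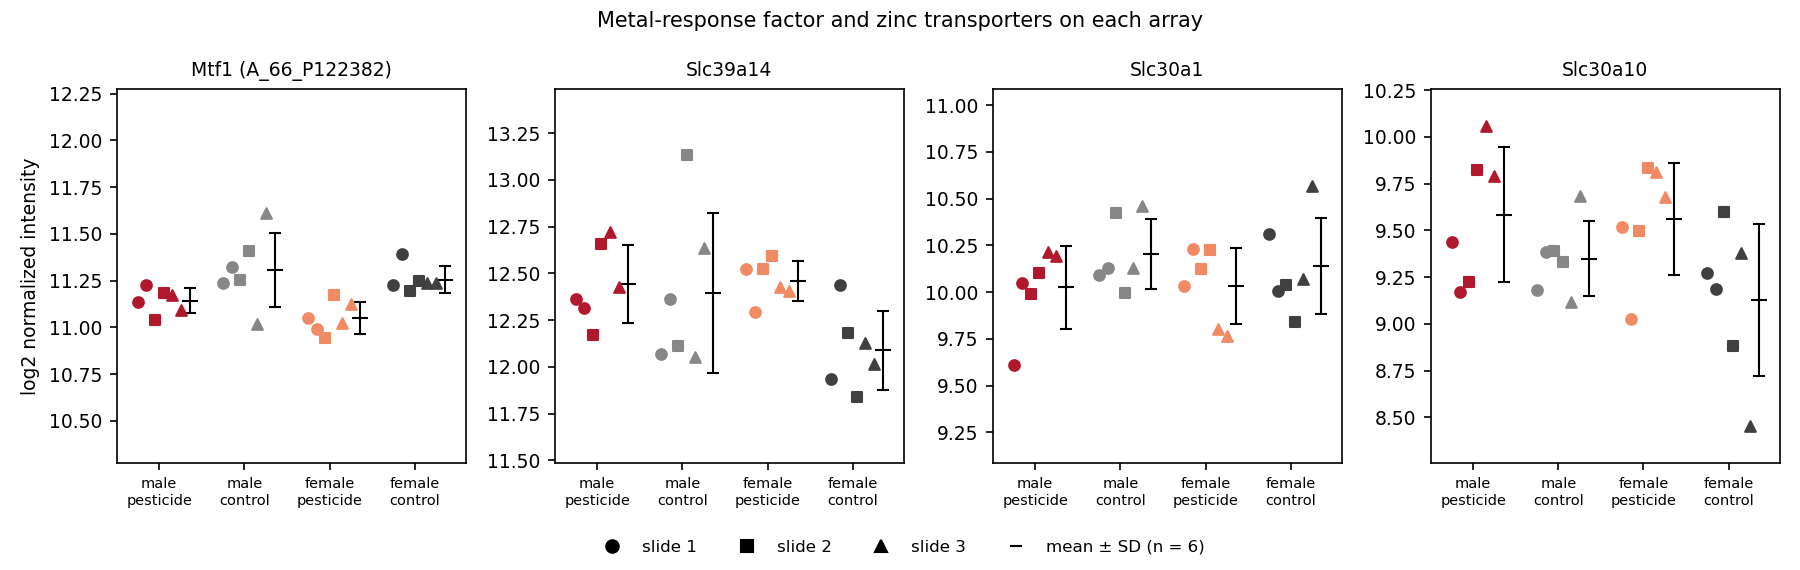
Log2 normalized intensity (y axis) of the brightest Mtf1 probe and of Slc39a14, Slc30a1 and Slc30a10 on each array, by labelled group (x axis), each panel spanning 2 log2 units, with the mean ± SD of 6 arrays. The group ranges overlap in every panel, except for Mtf1 in labelled females, where the 6 pesticide arrays reach 11.17 and the 6 control arrays start at 11.19.

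The metallothionein probes were among the most variable on the array within groups. After removal of the 4 group means, the SD over 24 arrays was 1.60 for Mt2, the 3rd highest of 32078 probes, and 1.23 for Mt1, the 21st, with a median of 0.18 over all probes. The variant probe of Mt1 had an SD of 1.19. The other members were nearer to the bulk of the probes, from 0.12 for Mtf1 A_66_P122382 to 0.33 for Slc30a10.

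Mt1 and Mt2 varied together from array to array. Within groups of 6 arrays, Pearson r between them was 0.786 in labelled male pesticide, 0.992 in male control, 0.969 in female pesticide and 0.940 in female control. Spearman rho was 0.714, 0.943, 0.886 and 0.943 in the same groups. Over the 20 relations computed, the exact permutation test with Benjamini-Hochberg adjustment gave p of 0.171, 0.037, 0.037 and 0.0625 for Pearson r, and no rho passed, with adjusted p from 0.111 to 0.389. Without the 2 arrays farthest from the median of Mt1, r was 0.491, 0.921, 0.977 and 0.703. The mean of Mt1 and Mt2 also went with Mtf1 in labelled male pesticide livers, with r of 0.948 (adjusted exact permutation p = 0.037), rho of 0.943 (adjusted 0.111), and r of 0.999 without the 2 farthest arrays. In the other 3 groups that relation did not pass. The relation with Slc39a14 in labelled male control, with r of 0.894, did not pass (adjusted exact permutation p = 0.128) and was 0.412 without arrays 1 and 4.

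**Figure D4:**
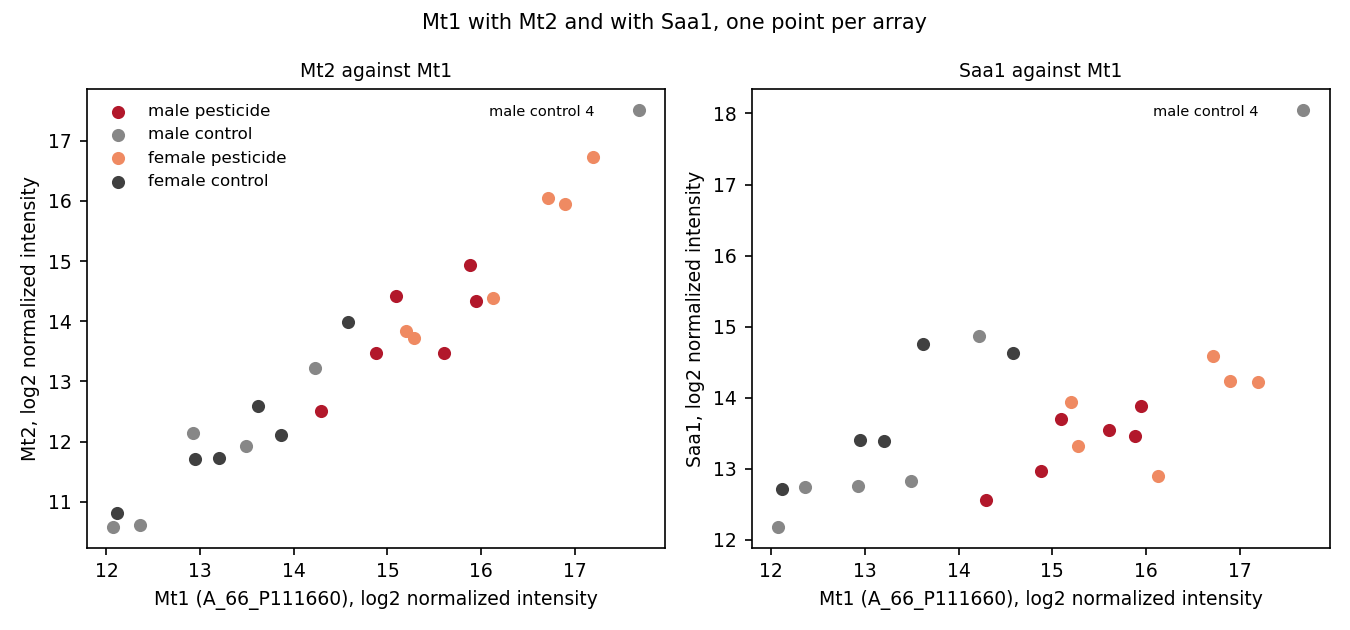
Mt2 (left, y axis) and Saa1 (right, y axis) against Mt1 probe A_66_P111660 (x axis), all as log2 normalized intensity, with 1 point per array coloured by labelled group and no Saa1 point for female control 3. Labelled male control 4 is the highest point in both panels, at 17.68 for Mt1 and 18.05 for Saa1.

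Male control 4 stood apart from the other 5 arrays of its group in acute phase genes as well. Its Mt2 was 5.81 above their mean on the log2 scale, the largest such difference of the 32078 probes, and its Mt1 was 4.67 above, the 6th largest. The array was examined because of its high Mt1 and Mt2, so these 2 ranks are no separate evidence. Slc39a14, which inflammatory cytokines are known to induce in liver, was 0.89 above the mean of the other 5 arrays (rank 431). Slc30a1 differed from that mean by -0.25 and Slc30a10 by -0.02. Saa1, the serum amyloid A protein of the acute phase, was at 18.05 on male control 4 and at 12.18 to 14.87 on the other 5. The differences were 4.98 for Saa1, 4.79 for Saa2, 4.14 for Lcn2, 2.22 for the metalloreductase Steap4, 1.71 for Serpina3n and 0.97 for Stat3, the factor that mediates interleukin 6 signals. Of the 21 acute phase and STAT3 genes, 17 lay above all 5 other arrays there, 3 within them and 1 below, where 19.4% of all tested probes lay above and 20.3% below. The one below was the interleukin 6 receptor Il6ra, at -0.71, and Socs3, a target and inhibitor of STAT3, differed by -0.11. Of the 14 glucocorticoid response genes 1 lay above all 5 other arrays and 6 below, with Dusp1 at -1.25 and Tsc22d3 at -0.90 from the mean of the others. The gene above was Lcn2, which is also in the acute phase list. The summed intensity of Kupffer cell markers on it was 23500, inside the 19800 to 73600 of the other male control arrays. The summed intensity of neutrophil markers was 2070, above their 1310 to 1740. By marker, 3 of the 8 lay above all 5 other arrays, 4 within them and 1 below, with a median difference of 0.14 (log2). The part of neutrophils in the metallothionein level of male control 4 was not tested.

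The genes with the pattern most like Mt1 and Mt2 were found by the correlation with their mean over the 24 arrays after removal of group means. In order they were Pip5k1a by its probe A_55_P1999902 (r = 0.968), Saa1 (0.921, over 23 arrays), Stat3 (0.889), Saa2 (0.853), the sugar phosphate transporter Slc37a1 (0.852) and Steap4 (0.838). The other tested Pip5k1a probes, at 0.061 and -0.109, did not share the pattern, so the first place is that of a probe and not of the gene. The 24 points share arrays and normalization, and male control 4 carried part of each value: without it r was 0.928 for Pip5k1a, 0.799 for Saa1, 0.792 for Stat3, 0.682 for Saa2, 0.611 for Slc37a1 and 0.540 for Steap4. Among the members, r was 0.744 for Slc39a14 (0.473 without that array), 0.447 for Mtf1, 0.131 for Slc30a10 and -0.180 for Slc30a1. The Saa1 spot of female control 3 was marked as an outlier and left out, on an array where Saa2 was at 16.91, the highest of its group. With that spot kept, at 16.27, r was 0.867 over 24 arrays and 0.688 without male control 4, and the mean of labelled control females was 14.19 ± 1.29 (SD, n = 6). Saa1 did not pass in either labelled sex. It averaged 13.35 ± 0.50 in labelled pesticide males, 13.90 ± 2.23 in labelled control males, 13.86 ± 0.63 in labelled pesticide females and 13.78 ± 0.88 in labelled control females (SD, n = 6, or 5 for the last), with limma adjusted p of 0.61 in males and 0.95 in females.

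The Pip5k1a pattern came from 1 probe, A_55_P1999902, listed for a transcript of the lipid kinase gene Pip5k1a. Of the other Pip5k1a probes, 2 were tested, with r of 0.061 and -0.109 against the metallothionein mean. In labelled females A_55_P1999902 was higher in the pesticide group by 2.36 ± 0.72 (log2, SE; limma adjusted p = 0.025), and in labelled males by 0.55 ± 0.72 (0.63). Its sequence is shown because it holds repeated cysteine codons, as metallothionein coding sequences do. It lies at chr3:94901128-94901187 (mm9, minus strand), and the capitals mark TGC codons in the frame that starts at base 3.
A_55_P1999902: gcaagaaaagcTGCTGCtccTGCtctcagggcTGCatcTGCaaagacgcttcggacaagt
There are 5 such codons among 19 in that frame, and 0.738% of all probes held as many in any 1 frame. The longest run it shares with a metallothionein probe on the array is 11 bases. That search covered only the probes and not the whole metallothionein transcripts, so it cannot decide whether the sequences match. In the frame with the most, the Mt1 probes held 2 cysteine codons each, the Mt2 probe 1, the Mt3 probe 4 and the Mt4 probe 9. Whether those probes lie in coding sequence was not examined, so their counts do not describe the metallothionein coding sequences. Whether metallothionein RNA bound to this probe was not tested.

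Of the remaining metallothionein genes, Mt3 did not pass in either labelled sex, at -0.02 in males and -0.07 in females (log2, limma adjusted p of 0.89 and 0.48), and Mt4 was below the level for testing.

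The wider zinc transporter families moved in both directions. In labelled males, 4 of 13 tested zinc importers (ZIP family) were higher and 3 lower, and 6 missed the threshold, with a median of -0.08 (log2). In labelled females, 4 were higher and 2 lower, and 7 missed it, with a median of 0.04. Over all 21276 genes tested, 13.3% were higher and 10.5% lower in males with a median of -0.02, and 9.82% were higher and 9.63% lower in females with a median of -0.01. Slc39a4, the importer of dietary zinc that is best known from intestine, averaged 14.37 ± 0.14 in labelled pesticide males against 11.96 ± 0.31 in labelled control males (SD, n = 6). In labelled females it averaged 14.18 ± 0.22 in the pesticide group against 11.98 ± 0.31 in the control group. Its log2 fold changes were 2.41 ± 0.14 in males (limma adjusted p = 3.8e-12) and 2.20 ± 0.14 in females (3e-11). Unlike Mt1 and Mt2, it stood at 11.88 on male control 4, within the 11.39 to 12.26 of the other 5 arrays.

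Slc39a5, a zinc importer of the basolateral membrane, rose by 0.93 ± 0.14 in labelled males (limma adjusted p = 4.6e-05) and 1.34 ± 0.14 in labelled females (2.9e-07). It was dim in the control groups, with means of 5.54 in males and 5.70 in females (log2). Eif2s3y averaged 5.08 on the labelled male pesticide arrays that lacked it. No background was subtracted, which limits the size of these 2 differences. Slc39a8 (ZIP8), which also carries manganese, rose by 0.33 in males (limma adjusted p = 0.026) and 0.50 in females (0.0019), and Slc39a3 by 0.18 (0.042) and 0.32 (0.0011). Slc39a11 differed by -0.35 (0.019) and -0.44 (0.0051), and Slc39a9 by -0.33 (0.0044) in males and -0.19 (0.11) in females. Of 7 tested zinc exporters (ZnT family), 0 were higher and 1 lower in each sex, with medians of -0.17 in males and -0.09 in females. The one that fell was Slc30a9, at -0.34 (0.0089) in males and -0.29 (0.031) in females. Without male control 4 the importer counts in males were 2 higher and 2 lower.

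**Figure D5:**
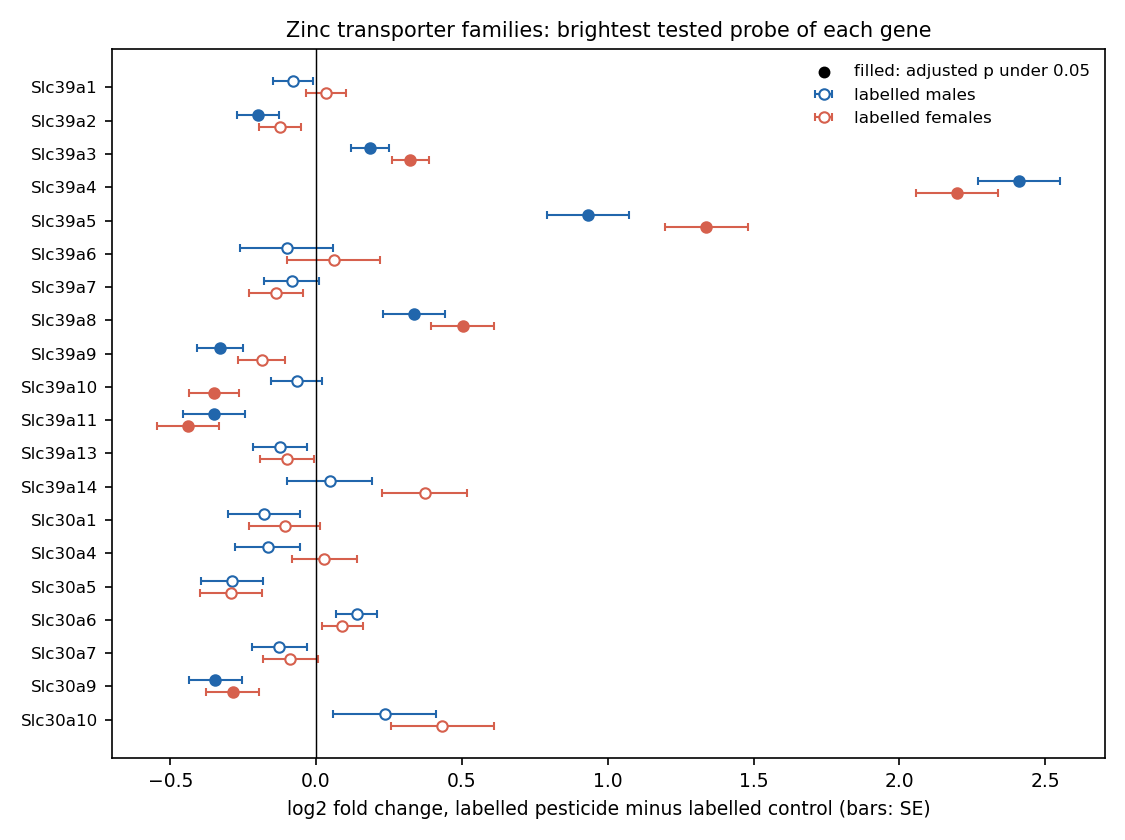
Log2 fold change (x axis, labelled pesticide minus labelled control, bars as SE) of each tested ZIP and ZnT gene (y axis) in labelled males and labelled females, filled where the limma adjusted p is under 0.05. Slc39a4, at 2.41 and 2.20, and Slc39a5, at 0.93 and 1.34, stand apart from the other genes, which lie between -0.44 and 0.50. Slc39a5 was dim in the control groups, with means of 5.54 in males and 5.70 in females (log2 normalized intensity).

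The list counts here stand beside shares over all 21276 genes of 13.3% higher and 10.5% lower in males. In females the shares were 9.82% and 9.63%. Among 16 genes of manganese, copper and other divalent metal handling, 4 were higher and 3 lower in labelled males, and 2 were higher and 2 lower in labelled females, with medians of 0.08 and 0.04. The iron exporter Slc40a1 (ferroportin) rose by 0.44 (limma adjusted p = 0.0098) and 0.56 (0.0018) in males and females, the copper chaperone Atox1 differed by -0.24 (0.022) and -0.34 (0.0026), and the metalloreductase Steap3 by -0.43 (0.0076) and -0.36 (0.024). Of 14 glucocorticoid response genes, 3 were higher and 1 lower in males and 5 were higher and 0 lower in females, with medians of 0.07 and 0.35. Without male control 4 the male median was -0.05, with 3 higher and 2 lower. Sgk1, a kinase induced by glucocorticoids, rose by 0.52 (0.037) in males and 1.33 (9.5e-06) in females. Of 21 acute phase and STAT3 genes, 4 were higher and 2 lower in males and 5 were higher and 1 lower in females, with medians of 0.08 and 0.18, and Fgl1 rose by 1.29 (0.0020) and 1.50 (0.00060). Without male control 4 the acute phase counts in males were 8 higher and 2 lower, with a median of 0.28. In that fit 19.1% of all tested probes passed in either direction, against 22.2% with the array. These 2 shares are over probes and both directions, unlike the shares over genes above. Of 13 tested NRF2 and oxidative stress genes, 2 were higher and 1 lower in males and 1 was higher and 3 lower in females, with medians of -0.01 and -0.07.

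Markers of other liver cell types moved with the labelled diet alongside Mt1 and Mt2. Over all genes tested, 13.3% were higher and 10.5% lower in males, and 9.82% were higher and 9.63% lower in females. In each labelled sex, 10 of 11 markers of Kupffer cells and macrophages passed as higher, with medians of 1.36 in males and 1.16 in females (log2). Their summed intensity ran from 49500 to 88300 in labelled pesticide males against 19800 to 73600 in labelled control males, and from 35700 to 115000 in labelled pesticide females against 15800 to 83600 in labelled control females. Of 8 endothelial markers 7 and 6 were higher in males and females, of 7 stellate cell markers 6 and 3, of 8 neutrophil markers 3 and 5, of 5 B and plasma cell markers 4 and 0, and of 5 T and NK cell markers 2 and 1, with 0 lower in each of these lists. Of 4 erythroid markers 1 was higher and 1 lower in each sex. The lower one was Alas2, the heme synthesis enzyme of red cell precursors, at -2.43 in males (log2, limma adjusted p = 7.6e-09) and -2.21 in females (4.6e-08). Of 4 bile duct markers 0 passed in limma in either sex, with 3 in males and 1 in females at an unadjusted p under 0.05. Of the 9 hepatocyte markers 0 passed in limma in either sex, with 2 and 3 at an unadjusted p under 0.05. In bulk liver RNA, more cells of a type and more RNA per cell cannot be told apart. The 2 control arrays whose Kupffer sums lay in the pesticide range, male control 5 at 73600 and female control 4 at 83600, had Mt1 at 12.35 and 13.62. The part of these cell types in the metallothionein differences was not tested.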

How the data were processed

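Scanner files from Agilent Feature Extraction 10.10.1.1 (per the submitters' processing notes) give each spot as fluorescence intensity, with quality marks and mm9 positions per the file headers. The authors also deposited a table of log2 values, made by filtering and quantile normalization of median signals per the labels. Every scanner file matched its own column of that table best (lowest r 0.9997).

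Median signals were taken as log2 with no background subtraction and without the 3671 control spots. Outlier spots (0 to 9 on an array) became missing, replicate spots were averaged, and the 24 arrays were quantile normalized over 56605 probes. Testing required well above background on at least 4 of 6 arrays in 1 group or more. Group means were fitted with limma 3.58.1 in R 4.3.3 (lmFit, eBayes, two-sided), and p was adjusted by Benjamini-Hochberg over 32078 probes with a threshold of 0.05. In lists a gene is represented by its brightest tested probe. The script was tested on simulated data.

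Named were the 6 genes with all their probes, up to 6 passing genes of a list by size, and the 6 genes with the most similar pattern. The genes compared on labelled male control 4 were named after their values were seen. The members, lists and tests were chosen with earlier results of these data known. Alternatives were other background corrections, scalings, filters, blocks and eBayes settings, the deposited table, and leaving out each array. List counts and correlations without labelled male control 4, and Saa1 with its outlier spot kept, were chosen after seeing the data.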

Additional observations from a re-analysis of the deposited data

Results flagged for a closer look

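Within-group outliers among the 10 probes were looked for in 40 sets of 6 arrays, by the gap of the highest or lowest array to its neighbour as a share of the group's range, and chance marks about 1 set in 20. The variant probe of Mt1, A_52_P423810, was at 10.46 on labelled female control 2, where the next array was at 7.21. Mtf1 A_66_P122382 was at 11.39 on the same array, where the next was at 11.25. Mtf1 A_55_P2715466 was at 6.99 on labelled female pesticide 3, where the next was at 6.73. Slc30a1 was at 9.61 on labelled male pesticide 1, the lowest of its group, where the next was at 9.99. Mt1 and Mt2 on labelled male control 4 did not meet the criterion, with gaps of 0.616 and 0.618 of the range.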

How the results depend on the processing

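For Mt1 and Mt2, the labelled diet differences in males, in females and over both sexes kept their direction and side of the threshold under all other processing settings tried, among them the deposited table, a slide block and no filter. In females Mt1 ranged over 2.75 to 2.85 (limma adjusted p 0.00069 to 0.0069). With the replicate number as a block, Mtf1 A_66_P122382 passed in females (-0.21, 0.041), the Mt1 variant probe A_52_P423810 did not (0.06), nor did Mtf1 A_52_P236072 over both sexes (0.066), and no other call among the 10 probes changed. Same-numbered arrays correlated at -0.12 to 0.22 between the diets, at 0.065 to 0.31 between the sexes on pesticide and at -0.014 to 0.34 on control. Not all pairs were over 0.1, and 1, 4, 4 and 8 of 12 arrays correlated best with their own number (diets in males, diets in females, sexes on control, sexes on pesticide), so the numbers were not taken as pairs. The count of the 10 probes passing in males was 1 with normexp and with either 75th percentile scaling (Mtf1 A_66_P122382) and with only the compared arrays (A_52_P423810), and in females Mtf1 passed under these 4 (0.022 to 0.048) and Slc39a14 with only the compared arrays (0.37, 0.022). Slc30a10 over both sexes missed the threshold with median or processed 75th percentile scaling and no filter (0.051 to 0.071). Slc39a14 in males was -0.025 and -0.037 with those scalings, the Mtf1 difference between sexes -0.007155 with the processed one, and the Slc30a1 male minus female difference on pesticide 0.008814 with normexp. With median scaling, r of 0.919 (metallothioneins and Mtf1, male pesticide), 0.992 and 0.97 (Mt1 and Mt2, male control and female pesticide) missed the adjusted threshold (exact permutation p 0.076, 0.056 and 0.056). Leaving out 1 array, the male count was 0 to 2, and male minus female counts over all probes were 0 to 1 in either diet. The cause of these shifts was not tested. The same fits gave -0.021 to 0.20 for Slc39a14 in males, -0.019 to 0.10 for Mtf1 and -0.16 to 0.012 for Slc30a1 as the difference between sexes, -0.38 to 0.75 for Mt1, -0.46 to 0.93 for Mt2 and -0.0080 to 0.11 for Mtf1 as male minus female on control, and -0.074 to 0.036 for Slc39a14, -0.058 to 0.078 for Slc30a1 and -0.085 to 0.11 for Slc30a10 on pesticide. All 10 probes were marked well above background on every array, but the Mt1 variant probe was dim on control arrays, which limits its values.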
